A study of Bos taurus with 12 samples.

Results

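RAB GTPases were followed across 12 arrays of bovine (Bos taurus) conceptuses and fibroblasts. The members were all genes whose only symbol in the array annotation was RAB followed by digits and at most 1 letter, which gave 39 genes of the 9155 that the array names with a single symbol. They were covered by 48 of 24016 probe sets, and where a gene had 2 probe sets, as 9 members did, the brighter by its mean over the 12 arrays stood for the gene. RAB-like genes with other symbols were not members.

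There were 4 groups of 3 arrays. AI arrays held conceptuses that grew from embryos produced in vivo, with AI standing for artificial insemination in this field. IVP arrays held conceptuses from oocytes fertilised and cultured in vitro, and SCNT arrays held conceptuses from somatic cell nuclear transfer. In all 3 groups blastocysts had been transferred to synchronized cows on day 7, and conceptuses of comparable length were recovered on day 16, when the trophoblast forms an elongating filament. FB arrays held the fibroblasts that had served as nuclear donors, although 1 label field gives them the same tissue name as the conceptuses. Breed, fibroblast line and sex are not given in the labels. Whether a group's arrays came from separate animals, cultures or pools is not stated in the labels, so the p-values measure only the spread between these arrays, which may be technical.

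RAB proteins are small GTPases that mark the surfaces of intracellular membranes and recruit the motors, tethers and coats that move and fuse vesicles. They are switched on by exchange factors, switched off by GTPase-activating proteins, and held in the cytosol by a dissociation inhibitor once a prenyl group has been attached. The elongating trophoblast is a polarised epithelium that secretes interferon tau and takes up uterine secretions, processes that run through these membrane routes.

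Values are log2 signals after GCRMA, a background correction and normalization for this type of array. They ran from 2.42, where the scale ends, to 13.66. A probe set was tested where it lay above log2 4 on at least 3 arrays of the fit, since lower values were taken as too dim to compare. Signals of different probe sets depend on their probes, so levels were compared between arrays for 1 gene and never between genes. A difference was called where its limma p-value, adjusted by Benjamini and Hochberg over all probe sets tested, was under 0.05.

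Of the 39 RAB genes, 14 were above log2 4 on all 12 arrays, 22 on at least 3 of the 12, and 21 on at least 3 of the 9 conceptus arrays. RAB27A made up the difference, since it reached that level in fibroblasts alone. The other 17 were at or below log2 4 on 10 or more arrays and were not tested. They were RAB3A, RAB3B, RAB3C, RAB3D, RAB4B, RAB7B, RAB9B, RAB11B, RAB19, RAB26, RAB27B, RAB29, RAB30, RAB33B, RAB37, RAB40B and RAB40C, and 14 of them were at or below log2 4 on every array. Among these dim genes were all 4 RAB3 genes, which are known for regulated exocytosis. A dim probe set does not show that a gene was silent.

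**Figure D1:**
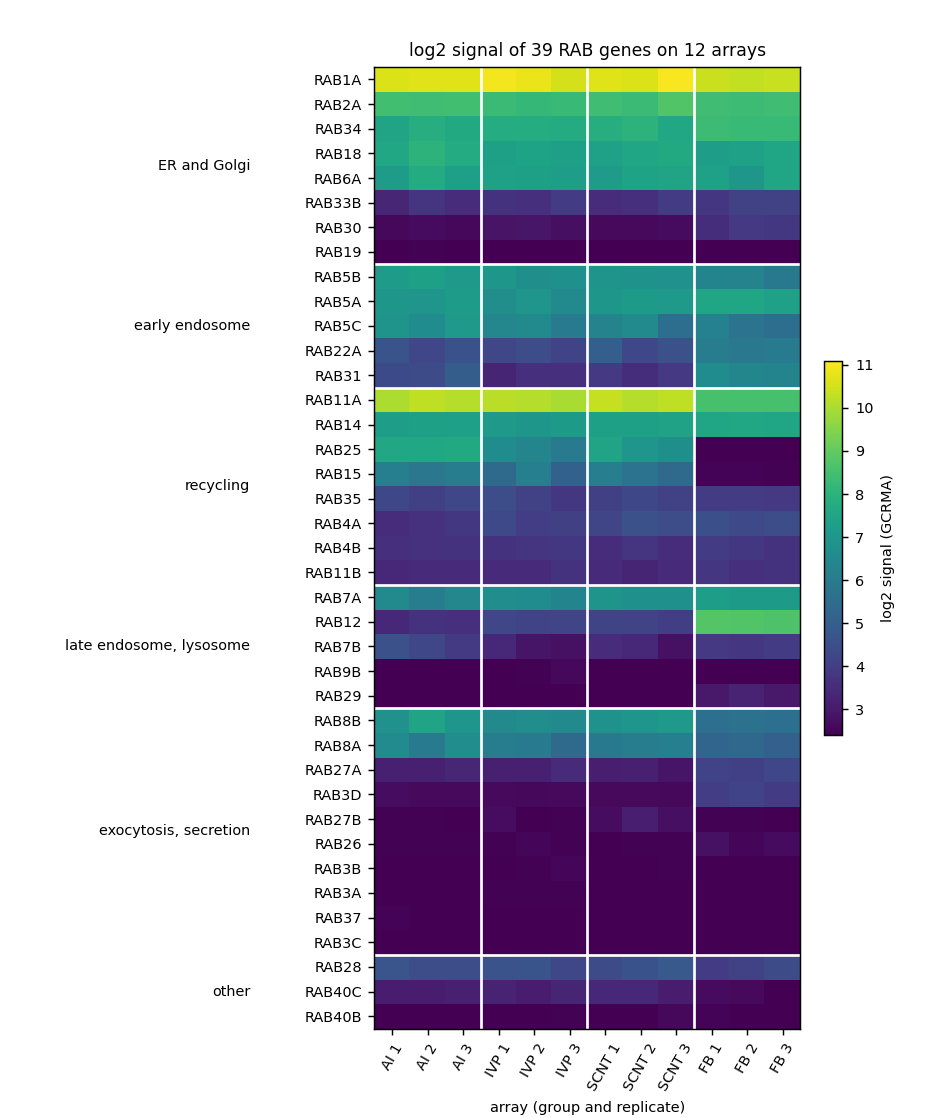
Heat map of the log2 signal of 39 RAB genes (rows, grouped by membrane route) on 12 arrays (columns, grouped as AI, IVP, SCNT and FB), with a colour scale in log2 units. Colours should be compared along a row; RAB25 and RAB15 turn dark and RAB12 and RAB31 turn light in the fibroblast columns.

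The arrays were comparable in the number of probe sets above log2 4, which ran from 6359 to 6643. Marker genes set the conceptuses apart from the fibroblasts: of 10 trophoblast markers on the array, 8 were above log2 4 on every conceptus array and 0 in FB, while ELF5 and KRT8 were dim throughout. Of 12 fibroblast markers, 10 were above log2 4 on every FB array and 1, THY1, on every conceptus array. The spike-in controls were brightest on AI replicate 2 and IVP replicates 2 and 3, at 8.91, 8.94 and 8.89, against 7.72 to 8.40 on the other arrays. The gap between the 3' and 5' probe sets of GAPDH, which widens as RNA is degraded or shortened, was 0.21 to 0.38 in AI, 0.28 to 0.45 in SCNT, 0.35 to 0.89 in IVP and 0.01 to 0.06 in FB. The signal of XIST, the RNA of the inactive X chromosome, was 2.42 on every SCNT and FB array, 4.79, 4.88 and 2.57 in AI, and 4.0, 2.42 and 6.55 in IVP.

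The comparison of conceptuses with the donor fibroblasts gave the largest RAB differences. RAB25, RAB15 and RAB11A, all of endosome recycling, led the higher side, and RAB12, RAB31 and RAB22A led the lower side. Of 22 RAB genes tested, 18 were called, 9 higher and 9 lower, which is 81.8%. This is close to the 82.6% called among all 8164 probe sets, of which 46% were higher and 36.6% lower, so the number of RAB genes called did not set them apart. RAB25 and RAB15 passed the filter only through conceptus arrays, and RAB27A only through FB arrays. Each was higher there, so these calls add nothing to the count as support. The median difference of the RAB genes tested was 0.12, against 0.19 over 4978 genes tested, and the median of its absolute size was 0.61 against 0.86. The arrays hold bulk RNA, in which more cells of a type and more RNA per cell cannot be told apart, and cultured cells were set against whole conceptuses.

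RAB25, an epithelial member of the RAB11 subfamily that returns cargo to the cell surface, measured 7.57, 7.62 and 7.69 in AI, 6.63, 6.37 and 5.98 in IVP, 7.49, 6.93 and 6.73 in SCNT, and 2.42 on each FB array. Every conceptus array lay far above the fibroblasts, which were at the bottom of the scale. With FB set to log2 4, RAB25 was at least 8.0-fold higher in conceptuses (difference 4.58, adjusted p = 4.22e-11).

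RAB15, which acts between early and recycling endosomes, measured 6.17, 5.84 and 6.08 in AI, 5.40, 6.15 and 5.09 in IVP, 6.13, 5.72 and 5.40 in SCNT, and 2.48, 2.47 and 2.45 in FB. The groups were again fully separate, and RAB15 was at least 3.42-fold higher in conceptuses (difference 3.31, adjusted p = 9.44e-09). RAB11A, the widely expressed GTPase of the recycling endosome, was well above log2 4 everywhere. It measured 10.03, 10.28 and 10.14 in AI, 10.19, 10.13 and 10.00 in IVP, 10.34, 10.12 and 10.27 in SCNT, and 8.56, 8.56 and 8.57 in FB. The lowest conceptus array exceeded the highest FB array, and RAB11A was 3.04-fold higher (95% interval 2.69 to 3.43, adjusted p = 1.72e-09). Of the 6 recycling genes tested, 3 were higher, 2 were lower and RAB35 was not called, beside 82.6% of all probe sets called.

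RAB8B and RAB8A, which deliver vesicles to the plasma membrane and the primary cilium, were also higher. RAB8B measured 6.81, 7.49 and 6.96 in AI, 6.58, 6.66 and 6.54 in IVP, 6.82, 6.97 and 7.10 in SCNT, and 5.58, 5.68 and 5.58 in FB, a 2.41-fold rise (1.99 to 2.90, adjusted p = 1.12e-06). RAB8A measured 6.59, 6.0 and 6.68 in AI, 6.06, 6.02 and 5.42 in IVP, 5.91, 6.05 and 6.17 in SCNT, and 5.24, 5.30 and 5.07 in FB. It rose 1.86-fold (1.46 to 2.38, adjusted p = 0.000247), and IVP replicate 3 came nearest to the fibroblasts. The second probe set of RAB8A rose too (difference 1.14, adjusted p = 4.77e-06).

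RAB27A, which tethers secretory lysosomes and exosome-bearing bodies at the cell surface, went the other way. It measured 3.15, 3.15 and 3.33 in AI, 3.15, 3.16 and 3.45 in IVP, 3.14, 3.15 and 2.90 in SCNT, and 4.19, 4.04 and 4.26 in FB. All conceptus arrays were under log2 4 and all FB arrays just above it, so the bound is only at least 1.12-fold lower (difference -0.99, adjusted p = 1.02e-06). RAB27A was tested only because of the FB arrays, where it was higher, so its call gives no support.

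The early endosome genes moved in both directions. RAB5B, one of the GTPases that drive early endosome fusion, measured 7.19, 7.35 and 7.09 in AI, 7.00, 6.73 and 6.78 in IVP, 6.89, 6.86 and 6.81 in SCNT, and 6.34, 6.29 and 5.93 in FB, with no overlap. It was 1.72-fold higher in conceptuses (1.47 to 2.00, adjusted p = 1.45e-05). RAB5C was called higher as well (1.54-fold, 1.12 to 2.13, adjusted p = 0.0167), although its groups overlapped. That call ended without FB replicate 2 (difference 0.57, adjusted p = 0.0606) or FB replicate 3 (0.48, 0.0901), and with no filter (adjusted p = 0.0687). Against FB the SCNT arrays alone gave 0.31 (adjusted p = 0.29) and the IVP arrays alone 0.50 (0.0994). RAB5A, their close relative, was 1.45-fold lower (1.25 to 1.67, adjusted p = 0.000253).

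RAB22A, which acts between early endosomes and the trans-Golgi network, measured 4.67, 4.26 and 4.60 in AI, 4.25, 4.47 and 4.19 in IVP, 5.03, 4.27 and 4.57 in SCNT, and 6.08, 5.90 and 5.97 in FB. The conceptus arrays all lay below the fibroblasts, and RAB22A was 2.84-fold lower in them (2.28 to 3.53, adjusted p = 9.18e-07). RAB31, also called RAB22B, measured 4.36, 4.39 and 4.96 in AI, 3.29, 3.61 and 3.58 in IVP, 3.85, 3.53 and 3.85 in SCNT, and 6.62, 6.39 and 6.31 in FB. Every FB array stood above every conceptus array, and RAB31 was at least 4.76-fold lower in conceptuses (difference -2.50, adjusted p = 5.24e-09). All 5 early endosome genes tested were called, 2 higher and 3 lower, beside 82.6% of all probe sets.

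RAB12, which directs recycling receptors towards lysosomal degradation, showed the largest difference of the RAB genes. It measured 3.37, 3.68 and 3.56 in AI, 4.24, 4.17 and 4.22 in IVP, 4.20, 4.17 and 4.02 in SCNT, and 8.77, 8.75 and 8.67 in FB. The conceptuses clustered around log2 4 and the fibroblasts lay far above, so RAB12 was at least 24.6-fold lower in conceptuses (difference -4.78, adjusted p = 4.82e-14).

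RAB7A, the main GTPase of late endosomes and their fusion with lysosomes, measured 6.58, 6.08 and 6.42 in AI, 6.68, 6.62 and 6.33 in IVP, 6.91, 6.77 and 6.75 in SCNT, and 7.24, 7.13 and 7.13 in FB. The groups did not overlap, and RAB7A was 1.51-fold lower (1.28 to 1.79, adjusted p = 0.000302). Its second probe set also fell (difference -0.81, adjusted p = 2.39e-05).

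Of the 5 endoplasmic reticulum and Golgi genes tested, 2 were called, beside 82.6% of all probe sets. RAB34, a Golgi GTPase with roles in lysosome positioning and the cilium, measured 7.48, 7.81 and 7.69 in AI, 7.80, 7.78 and 7.74 in IVP, 7.82, 8.02 and 7.60 in SCNT, and 8.36, 8.25 and 8.26 in FB. All conceptus arrays lay below the fibroblasts, a 1.45-fold decrease (1.25 to 1.68, adjusted p = 0.000237). RAB1A, which moves cargo from the endoplasmic reticulum to the Golgi, was 1.31-fold higher (1.12 to 1.53, adjusted p = 0.0039). RAB2A, which acts between those compartments, had a difference of 0.00 with a 95% interval of -0.19 to 0.18. RAB18, a GTPase of lipid droplets and the endoplasmic reticulum, had 0.18 (-0.04 to 0.41).

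RAB6A, which governs traffic within and out of the Golgi, gave different answers from its pair of probe sets. The brighter had a difference of 0.06 (-0.23 to 0.35) and was not called, while the other was called lower (difference -0.63, adjusted p = 0.000229). It was the only one of the 3 genes with both probe sets tested, the others being RAB7A and RAB8A, where the probe sets disagreed in sign against FB. In the other 6 of the 9 genes the second probe set was too dim to be tested.

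Of the remaining called genes, RAB14, which links the Golgi and endosomes, was 1.24-fold lower (1.13 to 1.37). RAB4A, a GTPase of fast recycling, was at least 1.19-fold lower with overlapping arrays, and its SCNT arrays alone gave a difference of -0.02 from FB (adjusted p = 0.867). RAB28, a ciliary member, was 1.33-fold higher (1.09 to 1.62) with overlapping arrays. The RAB28 call ended without FB replicate 1 (difference 0.29, adjusted p = 0.103) or FB replicate 2 (0.38, 0.0518).

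**Figure D2:**
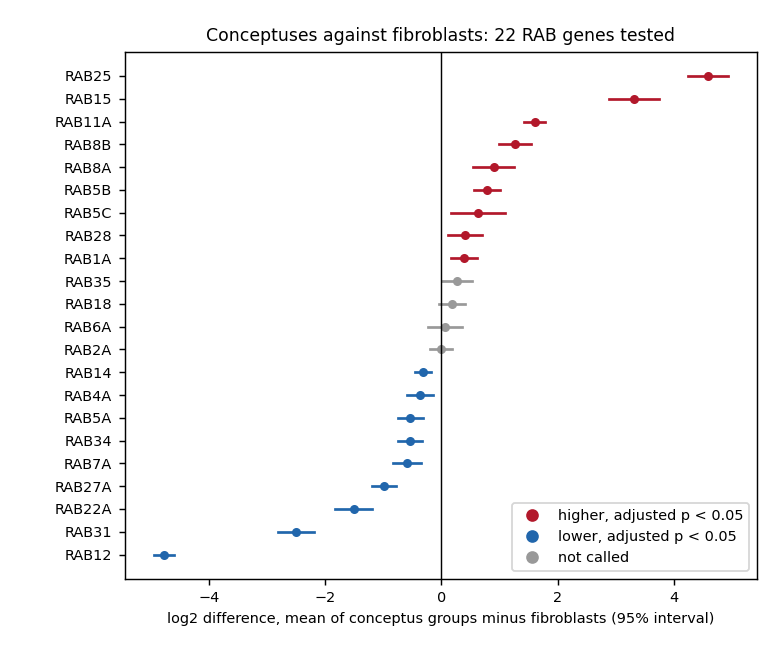
Differences in log2 signal between conceptuses (mean of the AI, IVP and SCNT group means) and fibroblasts for the 22 RAB genes tested, with 95% intervals. RAB25 lies highest at 4.58 and RAB12 lowest at -4.78; 9 genes were called higher, 9 lower and 4 were not called. For genes whose lower group is under log2 4, the plotted difference depends on values too dim to compare.

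Between the conceptus groups the RAB differences ran from -1.30 to 0.75, against -4.78 to 4.58 between conceptuses and fibroblasts. In SCNT against AI conceptuses, RAB12 and RAB4A were higher and RAB31 and RAB5C lower, so 4 of 21 RAB genes tested were called, or 19%. Of all 6892 probe sets 27.6% were called, 16.2% higher and 11.4% lower, and the RAB share was no larger than that background. The RAB differences were balanced around 0, with 11 positive and 10 negative, and ranged from -0.83 to 0.75. Their median was 0.05 against 0.10 over 4347 genes, of which 39.7% were negative. For 7 of the 21 genes, and for 44.3% of all probe sets, the SCNT and AI arrays had separate ranges.

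RAB4A, whose protein returns receptors quickly from early endosomes to the surface, measured 3.51, 3.64 and 3.80 in AI and 4.23, 4.55 and 4.44 in SCNT. All AI arrays were under log2 4 and all SCNT arrays above it. The mean was 3.65 ± 0.15 (SD, n = 3) in AI and 4.41 ± 0.16 (SD, n = 3) in SCNT, and RAB4A was at least 1.32-fold higher in SCNT (difference 0.75, adjusted p = 0.00431 by limma). RAB12 rose from 3.54 ± 0.15 to 4.13 ± 0.10 (SD, n = 3), again without overlap. Its SCNT arrays were barely above log2 4, so it was at least 1.09-fold higher (difference 0.59, adjusted p = 0.0063 by limma). Both rises rest on signals near the dim end of the scale. Both genes passed the filter on dim signals only through groups in which they were higher, so their calls add nothing to the count as support.

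RAB31, which works at early endosomes and the trans-Golgi network, fell from 4.57 ± 0.34 in AI to 3.74 ± 0.18 in SCNT (SD, n = 3). All SCNT arrays were under log2 4 and all AI arrays above it, and RAB31 was at least 1.48-fold lower in SCNT (difference -0.83, adjusted p = 0.00843 by limma). It passed the filter only through the AI arrays, so it could not be tested with any of these left out, and without the filter the adjusted p was 0.0747. Blood-cell markers moved alongside: of 9 on the array, 4 were above log2 4 on every AI array, and their summed linear signal was 768 to 1180 in AI, 65.9 to 154 in IVP, 63.9 to 131 in SCNT and 50.1 to 50.3 in FB. The 4 were CD48, ITGB2, RAC2 and ALAS2, while HBA, HBB, HBE1, PTPRC and CORO1A were below log2 4 on every array. Their part in the RAB31 difference was not tested.

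RAB5C, an early endosome fusion GTPase, measured 6.91, 6.63 and 7.11 in AI and 6.29, 6.53 and 5.55 in SCNT. The groups did not overlap, but SCNT replicate 3 was well below the others, and the gap between the nearest arrays was small. RAB5C fell 1.69-fold (1.15 to 2.48, adjusted p = 0.0453 by limma). The call ended when any of 6 single arrays was left out, namely AI replicates 1 and 3, SCNT replicates 1 and 3, and IVP replicates 1 and 2, with adjusted p up to 0.139. Without SCNT replicate 3 the difference was -0.47. It also ended without the dim-signal filter (adjusted p = 0.264).

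Of the other RAB genes in this comparison, RAB25 missed the threshold with a difference of -0.58 (adjusted p = 0.0653 by limma), RAB7A with 0.45 (0.0565) and RAB5B with -0.36 (0.058). RAB25 passed without SCNT replicate 1 (difference -0.80, adjusted p = 0.0175) and without IVP replicate 3 (-0.58, 0.0461). RAB7A passed without AI replicate 1 (0.56, 0.0457) and without IVP replicate 3 (0.45, 0.0484). Its second probe set had a difference of 0.11 (adjusted p = 0.646). RAB11A, by contrast, had a difference of 0.09 with an interval of -0.19 to 0.37. None of the 5 endoplasmic reticulum and Golgi genes and neither RAB8A nor RAB8B was called, beside 27.6% of all probe sets. The second probe set of RAB8A had a difference of only -0.14 (adjusted p = 0.595 by limma). RAB8A passed with the XIST signal as a covariate (difference -0.64, adjusted p = 0.0435), with the spike-in covariate (-0.54, 0.045) and without the 3 arrays of brightest spike-ins (-0.59, 0.0226).

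**Figure D3:**
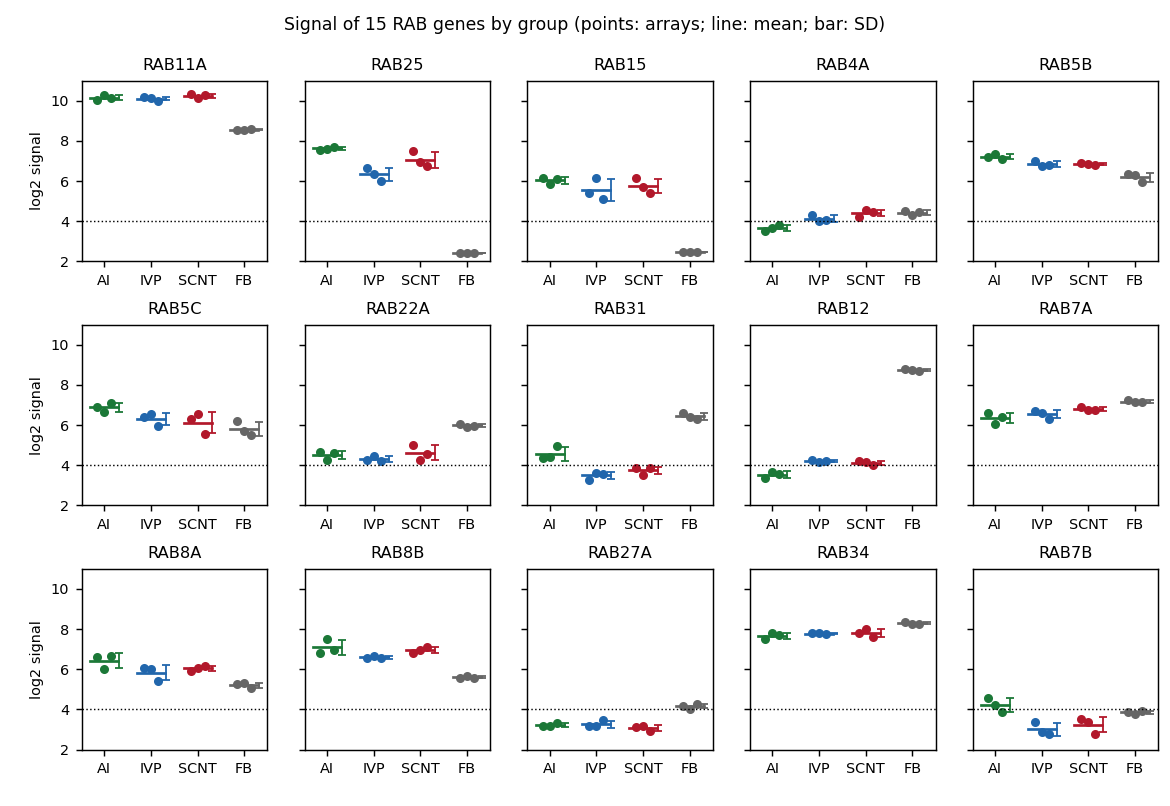
Log2 signal of 15 RAB genes by group, with 1 point per array, a line at the group mean and a bar of 1 SD (n = 3); the dotted line marks log2 4. RAB25 is lower in IVP than in AI and at the bottom of the scale in FB. Among the conceptuses RAB31 and RAB7B are above log2 4 mainly in AI, and RAB12 crosses log2 4 between AI and the other conceptuses. RAB4A crosses it between AI and SCNT, while IVP replicate 2 lies at 3.99.

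In IVP against AI conceptuses, RAB25 fell most and RAB31 fell with it, while RAB12 and RAB4A were higher. Again 4 of 21 RAB genes were called, or 19%, beside 17.9% of all probe sets, of which 8.42% were higher and 9.49% lower. Of the 4, RAB31, RAB12 and RAB4A passed the filter only through groups in which they were higher, so the count gives no support here either. Of the 21 RAB differences 16 were negative and 5 positive, most of them uncalled, with a median of -0.21, while over 4347 genes 43.3% were negative and the median was 0.06. Over the alternative settings that median ran from -0.31 to -0.13. The arrays did not overlap for 10 of 21 genes and for 37.4% of all probe sets. This comparison uses the same AI arrays as the last one, so the results of both lean on those 3 arrays. When AI replicate 2 and IVP replicates 2 and 3, the arrays with the brightest spike-ins, were left out together, 0 RAB genes were called in this comparison, with 1 IVP array remaining whose spread was taken from the other groups. Of all probe sets 6.27% were then called.

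RAB25 measured 7.57 to 7.69 in AI and 5.98 to 6.63 in IVP, so the groups were well apart. The means were 7.63 ± 0.06 and 6.33 ± 0.33 (SD, n = 3), a 2.47-fold decrease (1.78 to 3.41, adjusted p = 0.00263 by limma). It remained called when any single array was omitted, with adjusted p of 0.00137 to 0.014. IVP replicate 3, the lowest for RAB25, also had the widest GAPDH gap, at 0.89. With that gap as a covariate the difference was -0.93 (adjusted p = 0.0431), and without the 3 arrays of brightest spike-ins it was -1.0 (adjusted p = 0.0994). Without the dim-signal filter the adjusted p was 0.0525.

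RAB31 fell to 3.49 ± 0.18 (SD, n = 3) in IVP, where every array was under log2 4. It was at least 1.48-fold lower than in AI (difference -1.08, adjusted p = 0.00347 by limma), and the adjusted p was 0.0525 without the dim-signal filter. The blood markers were low in IVP as they were in SCNT. RAB12 reached 4.21 ± 0.04 (SD, n = 3) in IVP, at least 1.16-fold higher (difference 0.67, adjusted p = 0.00508 by limma). Without the 3 arrays of brightest spike-ins its difference was larger, at 0.77, with an adjusted p of 0.0517.

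RAB4A measured 4.32, 3.99 and 4.04 in IVP, all above the AI arrays, and was at least 1.09-fold higher (difference 0.47, adjusted p = 0.0488 by limma). This was the least secure of the calls: leaving out any of the AI or IVP arrays, or SCNT replicate 2 or 3, ended it, with differences of 0.37 to 0.55 and adjusted p up to 0.158.

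By route, 1 of 5 early endosome genes (RAB31), 2 of 6 recycling genes (RAB25 and RAB4A) and 1 of 2 late endosome genes (RAB12) were called, and none of the other routes. Of all probe sets 17.9% were called. Differences ran from -1.08 to -0.21 over the early endosome genes and from -1.30 to 0.47 over the recycling genes, and both late endosome genes had positive ones. For RAB7A, 1 of these late endosome genes, the second probe set had a difference of -0.06 (adjusted p = 0.819 by limma). RAB5B had -0.37 (adjusted p = 0.0667 by limma) and RAB18 had -0.41 (0.0741). RAB8A became a call without AI replicate 2 (difference -0.80, adjusted p = 0.0281), and RAB15 without IVP replicate 2 (-0.78, 0.0393), the array on which RAB15 was highest in its group. With all arrays the second probe set of RAB8A had a difference of only -0.08 (adjusted p = 0.785 by limma).

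**Figure D4:**
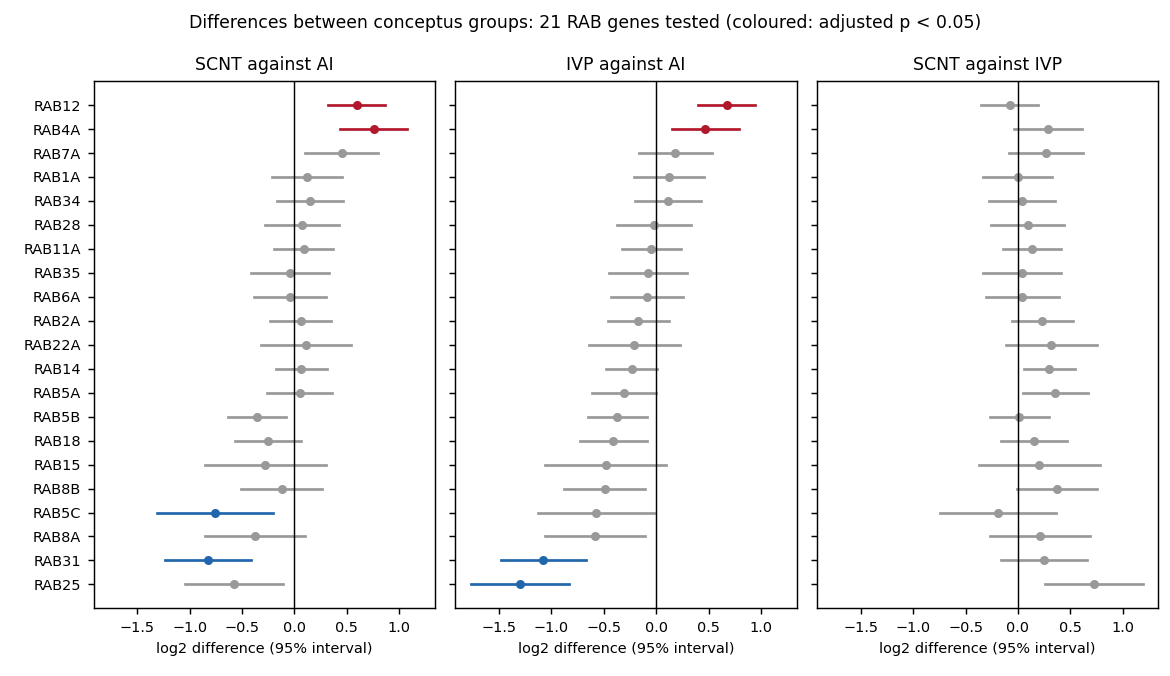
Differences in log2 signal for the 21 RAB genes tested between conceptus groups, with 95% intervals: SCNT against AI, IVP against AI and SCNT against IVP. Coloured genes had an adjusted p under 0.05, namely 4, 4 and 0. The first and second panels share the AI arrays, and the third uses the SCNT and IVP arrays of the other panels.

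SCNT and IVP conceptuses, compared directly, differed in no RAB gene at the threshold: 0 of 21 were called by limma, beside 0.58% of all probe sets. At an unadjusted p under 0.05 there were 3, RAB25, RAB14 and RAB5A, all higher in SCNT, and 876 of 6892 probe sets. The second probe set of RAB6A, not counted among the 3, was higher in SCNT too. Its difference was 0.49 (unadjusted p = 0.0119, adjusted p = 0.247 by limma), against 0.04 for the brighter probe set. RAB25 had the largest difference, 0.72 with an interval of 0.26 to 1.19 (adjusted p = 0.196). Its arrays did not overlap, at 6.73 to 7.49 in SCNT and 5.98 to 6.63 in IVP. RAB14 differed by 0.30 (0.05 to 0.55, adjusted p = 0.297 by limma) and RAB5A by 0.36 (0.05 to 0.67, adjusted p = 0.315 by limma).

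The other genes called in a comparison with AI had intervals that spanned 0. RAB12 differed by -0.08 (-0.35 to 0.20), RAB4A by 0.29 (-0.04 to 0.61), RAB31 by 0.25 (-0.16 to 0.66) and RAB5C by -0.19 (-0.74 to 0.37). Of the 21 differences 18 were positive and 3 negative, while over 4347 genes 40.3% were negative. The median was 0.20 against 0.05 over those genes. Each of these differences is the SCNT difference from AI minus the IVP difference from AI. The counts by sign are therefore not independent of those in the comparisons with AI. With no call here, RAB25, called in IVP and not in SCNT against AI, was not shown to differ between IVP and SCNT.

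Replicate arrays of a group varied little for most RAB genes, with a median SD of 0.14 over the genes tested and all groups. That median takes in FB, where RAB25 (SD 0) and RAB15 (SD 0.02) lay near the bottom of the scale. It therefore does not give the spread of the conceptus arrays alone. The widest SDs were those of RAB15 in IVP (0.54), RAB5C in SCNT (0.51), RAB25 in SCNT (0.39), RAB22A in SCNT (0.38) and RAB8A in AI (0.37). With 3 arrays a group, the number of arrays limits which differences of this size can be called.

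The proteins that control and read RAB GTPases were looked at from a list of 149 names, of which 82 were on the array. In SCNT against AI, 7 of 42 tested were called, or 16.7%, 6 higher and 1 lower, which is below the 27.6% of all probe sets called there. RABEPK, an effector of RAB9, measured 3.44, 3.21 and 3.27 in AI and 4.61, 4.15 and 4.37 in SCNT and was at least 1.30-fold higher (difference 1.07, adjusted p = 0.00331 by limma). It passed the filter on dim signals only through groups in which it was higher, so its call adds nothing to the count as support. USO1, a Golgi tether that RAB1 recruits, was 1.58-fold higher (1.26 to 1.98), and the golgin GOLGA5 was 1.58-fold higher (1.21 to 2.05). The Golgi proteins GOLGA2 and GORASP2 of the same list were not called, with differences of 0.17 and 0.13.

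Of the exchange factors, TRAPPC3, a core subunit of the TRAPP complex, was 1.53-fold higher (1.19 to 1.96), and HPS4, part of an exchange factor for RAB32 and RAB38, 1.41-fold (1.11 to 1.78). PLIN3, a lipid droplet coat protein also described as a RAB9 effector, had a difference of 0.61, with overlapping arrays. MICALL2, an effector of RAB13, was at least 1.45-fold lower in SCNT (difference -0.70, adjusted p = 0.039 by limma). The 4 prenylation and cycling genes and the 8 GTPase-activating proteins tested gave no call.

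In IVP against AI, 2 of 42 were called, or 4.76%, beside 17.9% of all probe sets. ANKRD27, an exchange factor for RAB21, was 1.44-fold higher (1.15 to 1.80, adjusted p = 0.0329 by limma), and TBC1D14, a RAB11-binding TBC protein, was 1.33-fold lower (1.11 to 1.58, adjusted p = 0.0347 by limma). None was called between SCNT and IVP.

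Against FB, 42 of 50 were called, or 84%, close to the 82.6% of all probe sets. Of these partners 12 were higher and 30 lower in conceptuses, beside 46% and 36.6% of all probe sets, and their median was -0.42 against 0.19 over all genes tested. Only 42 had passed the filter on the conceptus arrays. Genes such as TRAPPC6B, TBC1D4, RILPL1 and SYTL2 passed only through FB arrays, and RABGGTA, RAB3IP, DENND2D and TBC1D13 only through conceptus arrays. The counts by direction and the median therefore give no support. With 1 FB array omitted, 31 to 34 of 44 were called, 11 or 12 higher and 20 to 22 lower, beside 74.5% to 74.7% of all probe sets. Of the 22 effectors tested, 6 were called higher and 15 lower. PLIN3 was 16.5-fold higher (13.0 to 20.9), and OPTN, an autophagy receptor that binds RAB8, was 14.4-fold lower (10.8 to 19.1). RILPL1, which binds phosphorylated RAB8 and RAB10 near the centrosome, was at least 8.28-fold lower, and SYTL2, an effector of RAB27, at least 2.78-fold lower.

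The GTPase-activating proteins TBC1D4 and TBC1D2 were at least 3.43-fold and at least 4.70-fold lower, RAB3GAP1 was 1.86-fold lower (1.54 to 2.24) and TBC1D13 was at least 1.78-fold higher. Among exchange factors, RAB3IP, which activates RAB8, was at least 3.12-fold higher and DENND2D at least 1.32-fold higher, whereas TRAPPC6B was at least 3.37-fold and HPS4 2.44-fold lower (2.04 to 2.93). RABGGTA, a subunit of the enzyme that prenylates RAB proteins, was at least 2.26-fold higher, and RABAC1, a prenylated RAB acceptor, was 3.73-fold lower (3.11 to 4.48). RAB8A, RAB8B and RAB3IP were each called higher in conceptuses, whereas OPTN and RILPL1, which bind RAB8, were lower. RAB3IP passed the filter only through conceptus arrays and RILPL1 only through FB arrays, so neither adds support.

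**Figure D5:**
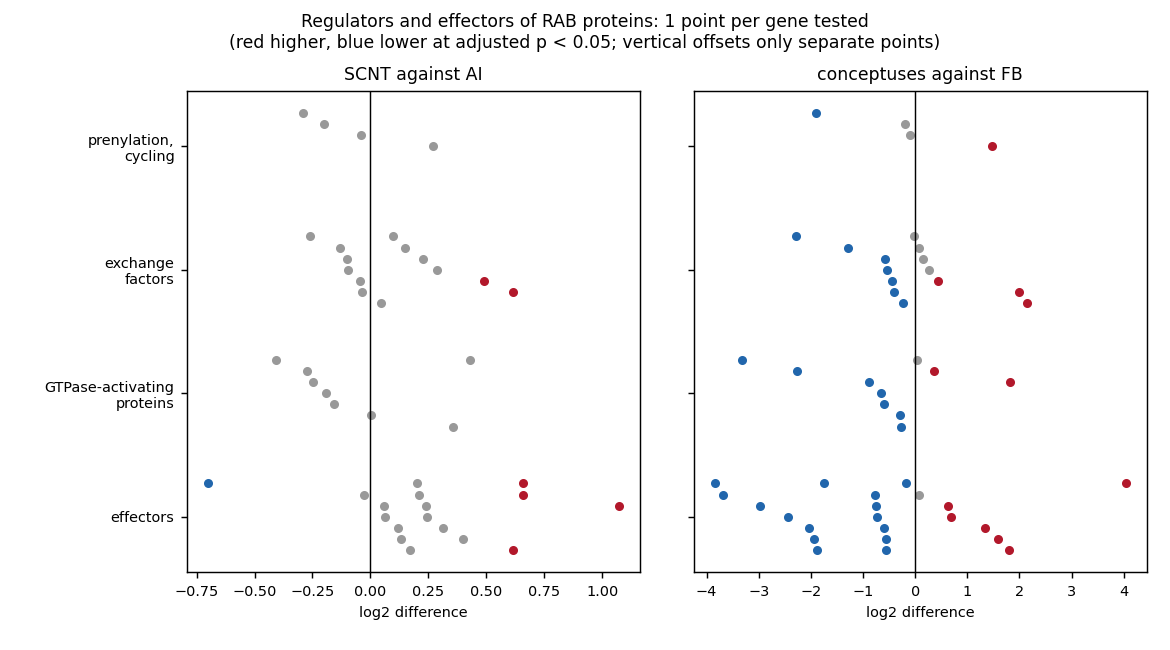
Differences in log2 signal of regulators and effectors of RAB proteins, 1 point per gene tested, by role, for SCNT against AI (42 genes) and conceptuses against FB (50 genes); red points were called higher, blue points lower and grey points were not called. The axes differ: the values run from -0.70 to 1.07 on the left and from -3.85 to 4.04 on the right.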

How the data were processed

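The arrays were Affymetrix GeneChips for the bovine genome, and the RNA was amplified and biotin-labelled, per the labels' protocols. For each array the authors deposited 24128 log2 values, 1 per probe set, of which 112 were for control probe sets and were left out. All sample columns were used (0 unused). The submitters' processing notes name GCRMA and limma. Neither their versions nor a joint normalization of all arrays is stated there.

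Symbols came from the array annotation. All 39 members had a gene ID in the table for assembly ARS-UCD2.0, which changed 0 symbols. No coordinates or sequences are given, and 3 probe sets that name a RAB gene together with another gene were left out.

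The deposited log2 values were not normalized again. Linear models, with 1 coefficient per group, used limma 3.58.1 under R 4.3.3 for the 9 conceptus arrays (6 residual degrees of freedom) and, for the contrast of the 3 conceptus group means with FB, for all 12 (8). Tests were two-sided. Where the mean of the lower group, or against FB of any of the 3 conceptus groups on the lower side, was below log2 4, that group's arrays below 4 were set to 4 and the fold is a lower bound. Other folds have 95% intervals. The procedure was tested on simulated data.

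Array values are given for members called between conceptus groups and for the 6 largest differences from FB in each direction. Regulators and effectors are named up to 4 per role and comparison, if called without overlap. PLIN3 in SCNT against AI overlapped and was added after its values were seen, as were the second probe sets and the genes near the threshold. The members and lists were chosen with earlier results of these data known.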

Additional observations from a re-analysis of the deposited data

How the results depend on the processing

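Other filters, thresholds, normalizations, variance models, covariates (spike-in, GAPDH, XIST), sets of arrays and the omission of each array were tried. Omitting the 3 arrays of brightest spike-ins outside IVP against AI, and the settings for regulators and effectors, were chosen after seeing the data. For SCNT against AI, the 4 RAB calls of 21 tested became 2 of 39 without a filter and 1 of 15 above log2 5. A fit of all 12 arrays gave 7 of 22. Over all probe sets 4.1%, 29.8% and 31% were called in these settings. With single arrays omitted there were 2 to 6 RAB calls, beside 17.1% to 28.3% of all probe sets. The fewest RAB calls came without AI replicate 3 and the most without IVP replicate 3. The 7 partner calls became 3 without a filter, 3 above log2 5, 2 at an adjusted p under 0.01 and 3 with the XIST covariate, and 3 to 7 with single arrays omitted. In SCNT against AI 13.3% of all probe sets were called at an adjusted p under 0.01, and 22.4% with the XIST covariate. For IVP against AI, the 4 RAB calls became 1 above log2 5 and 0 without the 3 arrays of brightest spike-ins, and 2 to 4 with single arrays omitted, lowest without AI replicate 1 or 3. The 2 partner calls became 1 above log2 5, 1 after quantile normalization, 0 at an adjusted p under 0.01, 4 with the spike-in covariate, 0 with the GAPDH covariate, 4 in a fit of all 12 arrays and 0 without the 3 arrays, and 0 to 3 with single arrays omitted. Beside these, 20.6% of all probe sets were called in IVP against AI above log2 5, and 9.95% to 17.9% with single arrays omitted. The share was 15.5% with the spike-in covariate, 7.28% with the GAPDH covariate and 22.4% in the fit of all 12 arrays. It was 18.7% after quantile normalization and 7.07% at an adjusted p under 0.01. RAB31 dropped out of the test whenever an AI array was omitted, which left 20 RAB genes tested. Beyond this, the fewer probe sets above log2 5 and the fewer arrays, the cause was not tested. No RAB gene was called between SCNT and IVP under any setting run, and calls against FB stayed within 1.5 times. RAB6A against FB reversed to -0.28 (adjusted p = 0.0129) as the mean of its probe sets.

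Same-numbered arrays did not deviate together (correlations of -0.15 to 0.14 over 9 pairs). With a replicate block the RAB calls were 5, 3, 0 and 18 in SCNT against AI, IVP against AI, SCNT against IVP and against FB. Of all probe sets 25.1%, 15.6%, 0.334% and 82.3% were then called. In that setting 1 of 42 partners was called for IVP against AI.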

Other observations

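RAB7B, which acts between late endosomes and the Golgi and was too dim to be tested, was singled out after its values were seen. It measured 4.55, 4.24 and 3.87 in AI, 3.38, 2.88 and 2.79 in IVP, 3.51, 3.37 and 2.80 in SCNT, and 3.86, 3.78 and 3.92 in FB. Every AI array lay above every IVP and SCNT array. With no filter on dim probe sets, its difference from AI was -1.20 in IVP (adjusted p = 0.0959 by limma) and -0.99 in SCNT (adjusted p = 0.12 by limma), neither of which was called. As for RAB31, the blood markers were highest in AI, and their part was not tested.

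RAB3D, a secretory granule GTPase, measured 3.98, 4.15 and 3.94 in FB and 2.59 to 2.70 on the conceptus arrays. RAB30, a Golgi GTPase, measured 3.53 to 3.84 in FB and 2.58 to 2.93 in conceptuses. Neither was bright enough to be tested, and both were singled out after their values were seen.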
